A study of Rattus norvegicus with 3 samples.

Results

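Palmd and Ttll11 are 2 rat genes whose brightest probe set read low in the brainstem of sham animals. There it was more than 2-fold lower than in animals with traumatic brain injury (TBI) and in animals given hand acupuncture. Both genes were chosen by that pattern and are the only 2 with it among 9241 genes over a signal floor described below. Their other probe sets did not share the pattern as a group. The platform's annotation names 14217 genes with a single symbol. With no floor, 307 of these (2.16%) were at least 2-fold lower in sham than in both other groups. The annotation gives Palmd 4 probe sets and Ttll11 2, so 6 of the 31099 probe sets on the array belong to them. The series holds 3 Affymetrix expression arrays of Rattus norvegicus brainstem, 1 for each of the treatment labels Sham, TBI and Hand Acu, all collected 1 h after modelling. Tissue of 5 rats was mixed, read here as 1 pool for each group, and 6 µg of total RNA was labelled. Neither strain, sex nor age is given in the sources used here, and the labels leave unsaid where needles were placed and whether the rats of the Hand Acu group were also injured. With 1 array per group no difference below has an error or a test, and each one compares single pools of RNA. In such bulk tissue, fewer cells of a type and less RNA per cell cannot be told apart.

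Palmd encodes palmdelphin, a mostly cytosolic member of the paralemmin family, whose other members attach to the inner face of the plasma membrane and are linked to cell shape. In human cells PALMD is known as a target of the stress-activated transcription factor p53. Ttll11 encodes an enzyme of the tubulin tyrosine ligase-like family, which extends chains of glutamate on the tails of tubulin. Such polyglutamylation marks stable microtubules of axons and cilia and tunes the binding of motors and of severing enzymes.

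Because both genes were chosen for a shared pattern, the 250 bases before their annotated starts are shown for comparison, from RefSeq on the rat assembly GRCr8. The Palmd region lies on chromosome 2 at chr2:207626240-207626489, minus strand. Ttll11 has 2 annotated starts on chromosome 3, and the region before the outer one is chr3:39732894-39733143, minus strand. Capitals mark matches to the motifs searched.
Palmd: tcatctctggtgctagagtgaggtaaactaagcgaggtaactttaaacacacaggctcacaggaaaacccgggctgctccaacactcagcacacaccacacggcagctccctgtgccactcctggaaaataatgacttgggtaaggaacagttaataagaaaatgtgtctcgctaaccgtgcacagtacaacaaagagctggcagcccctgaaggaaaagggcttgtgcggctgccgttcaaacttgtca
Ttll11: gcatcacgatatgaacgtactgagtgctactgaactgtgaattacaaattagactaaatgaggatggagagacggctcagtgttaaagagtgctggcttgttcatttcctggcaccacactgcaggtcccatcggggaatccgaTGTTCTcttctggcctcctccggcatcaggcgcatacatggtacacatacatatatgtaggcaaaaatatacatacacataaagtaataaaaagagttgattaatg
The motifs, searched on both strands, were the TATA box (TATAAA), the CCAAT box (CCAAT), the GC box (GGGCGG), the cAMP response half-site (TGACG), the AP-1 site (TGANTCA), the E-box (CANNTG) and the glucocorticoid response half-site (TGTTCT). No match to any of the 7 was found in the Palmd region. The Ttll11 region held 1 glucocorticoid half-site, 106 to 101 bases before the start, a motif present in 17.5% of 33469 rat promoter regions of this length. Before the inner Ttll11 start the region held 1 GC box and 1 E-box, motifs found in 30.5% and 65.5% of promoter regions, and the matches did not overlap. The base composition of the 3 regions differed. G and C made up 50% of the Palmd region, 42.8% of the outer Ttll11 region and 76.0% of the inner one, where the median promoter region had 51.2%. CpG dinucleotides numbered 7, 7 and 39 in the same order, against a median of 5. These matches describe the letters in the windows only.

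Values are log2 of the MAS5 signal, in which an array's perfect-match and mismatch probes are combined into 1 signal per probe set. A mean log2 signal of 7.44, the median of the probe sets that are not controls, was used as a floor. Scatter grew gradually as signal fell, with no step at the floor. By deciles of mean signal, the SD of TBI minus Sham was 0.30 just above the floor, 0.35 just below it and 1.76 in the lowest decile. For Palmd the probe set over the floor, 1376924_a_at, read 7.89 for Sham, 9.30 for TBI and 8.99 for Hand Acu. On the linear scale these are signals of 237, 630 and 509. The Sham array was the low one, and the TBI and Hand Acu arrays lay closer to each other than to it. TBI exceeded Sham by 1.41 on the log2 scale (2.65-fold) and Hand Acu exceeded Sham by 1.10 (2.14-fold). Hand Acu was below TBI, with a log2 difference of −0.31 (1.24-fold).

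For Ttll11 the probe set over the floor, 1380266_at, read 8.32 for Sham, 9.40 for TBI and 9.40 for Hand Acu, or linear signals of 320, 673 and 676. Again Sham was the low array, and the other two differed by only 0.0056 on the log2 scale. The difference from Sham was 1.07 for TBI (2.10-fold) and 1.08 for Hand Acu (2.11-fold). These values chose both genes, so they are a description. Among 9241 genes over the floor, these 2 genes, 0.0216% of them, were at least 2-fold lower on Sham than on both other arrays, as the rule fixes. No gene was 2-fold higher on Sham than on both others, 1 (0.0108%) was 2-fold lower on TBI alone and 1 (0.0108%) was 2-fold higher on Hand Acu alone. These counts take the brightest probe set of each gene. Of all 15521 probe sets over the floor, 3 (0.0193%) were 2-fold lower on Sham than on both others and 7 (0.0451%) were 2-fold higher. At 1.5-fold, 60 of these probe sets were lower on Sham and 69 were higher. In single comparisons, 0.0649% of genes were at least 2-fold higher on TBI than on Sham and 0.0974% on Hand Acu than on Sham.

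**Figure D1:**
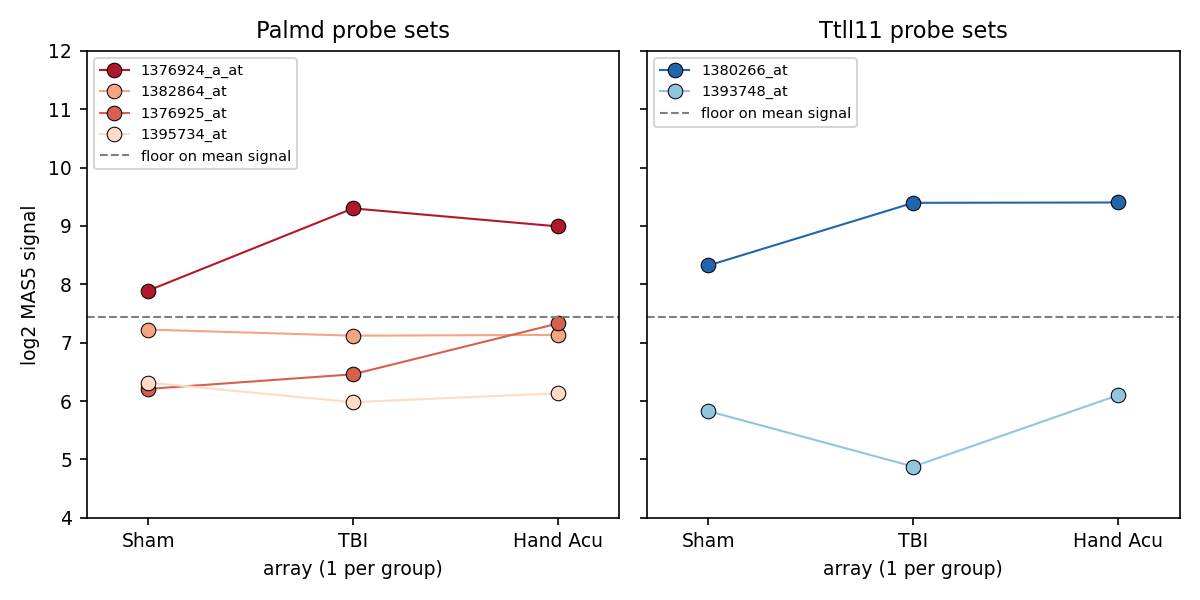
Log2 MAS5 signal (vertical axis) of the 4 Palmd and 2 Ttll11 probe sets on the Sham, TBI and Hand Acu arrays, 1 point per array, with the floor of 7.44 as a dashed line. In each gene the probe set over the floor is lowest on Sham, at 7.89 and 8.32, while the probe sets below the floor follow other orders.

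The other probe sets of the 2 genes did not share this pattern as a group. Palmd has 3 more, with means of 7.16, 6.66 and 6.14, all below the floor. Which transcripts each probe set reads is not given in the sources used here. Probe set 1376925_at, which the annotation lists under the same sequence record as 1376924_a_at, read 6.21, 6.46 and 7.33 on the Sham, TBI and Hand Acu arrays. It was also lowest on Sham, but its order differed from that of 1376924_a_at, because TBI lay only 0.25 above Sham and Hand Acu lay 1.12 above it (2.17-fold). Probe set 1382864_at read 7.22, 7.12 and 7.13, so it was slightly highest on Sham, and its values spanned little. Probe set 1395734_at read 6.32, 5.98 and 6.13 and was highest on Sham as well.

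Ttll11 has 1 more probe set, 1393748_at, which read 5.83, 4.88 and 6.10. Here the TBI array was the low one, with a difference from Sham of −0.95, while Hand Acu was 0.27 above Sham. Over all probe sets of a gene, TBI was higher than Sham in 2 of 4 for Palmd and in 1 of 2 for Ttll11. Hand Acu was higher than Sham in 2 of 4 and in 2 of 2. Of the 6 probe sets, 3 were lower on Sham than on both other arrays by any amount, 2 of them the chosen ones, and this held for 35.7% of all 31042 non-control probe sets. Averaged over all probe sets of the gene on the log2 scale, the difference of TBI from Sham was 0.30 for Palmd and 0.061 for Ttll11, and that of Hand Acu from Sham was 0.49 and 0.68. An average of linear signals, which weights bright probe sets more, gave 0.77 and 0.70 for Palmd and 0.90 and 0.98 for Ttll11.

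Each probe set was set beside the 200 non-control probe sets nearest to it in mean signal, as a measure of how much 2 arrays differ at that brightness. Around Palmd 1376924_a_at, the SD of TBI minus Sham was 0.22 and the central 95% of values ran from −0.37 to 0.48, with 0 of the 200 as high as Palmd. For Hand Acu minus Sham the SD was 0.26, the central 95% ran from −0.55 to 0.49, and 1 of 200 was at least as high. For Hand Acu minus TBI, a difference that the rule did not set, the −0.31 of Palmd lay inside the central 95%, from −0.34 to 0.39. That value lay near the lower end of the range. The SD was 0.18, 8 of 200 were at least as low and 17 of 200 at least as large in size.

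Around Ttll11 1380266_at the SD was 0.24 both for TBI minus Sham and for Hand Acu minus Sham. The central 95% ran from −0.44 to 0.47 in the former and from −0.57 to 0.42 in the latter, and 0 of 200 reached Ttll11 in either. Among the 200 neighbours in signal, 60 were lower on Sham than on both other arrays by any amount, against 73 around Palmd, and none was so by 2-fold in either set. The dim probe sets lay in wider scatter. Around Ttll11 1393748_at the SD was 0.55 for TBI minus Sham and 0.66 for Hand Acu minus TBI, and its −0.95 and 1.22 fell inside the central 95% of both. For Palmd 1376925_at, the 1.12 of Hand Acu minus Sham lay above the central 95%, which ended at 0.83, with 2 of 200 as high. Its 0.87 for Hand Acu minus TBI also lay above the central 95%, which ended at 0.75, with 4 of 200 as high, and opposite in sign to that of 1376924_a_at. The differences of Palmd 1382864_at and 1395734_at lay inside that range in all 3 comparisons. The scatter of like probe sets mixes technical noise with real differences between pools and is no replicate error.

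**Figure D2:**
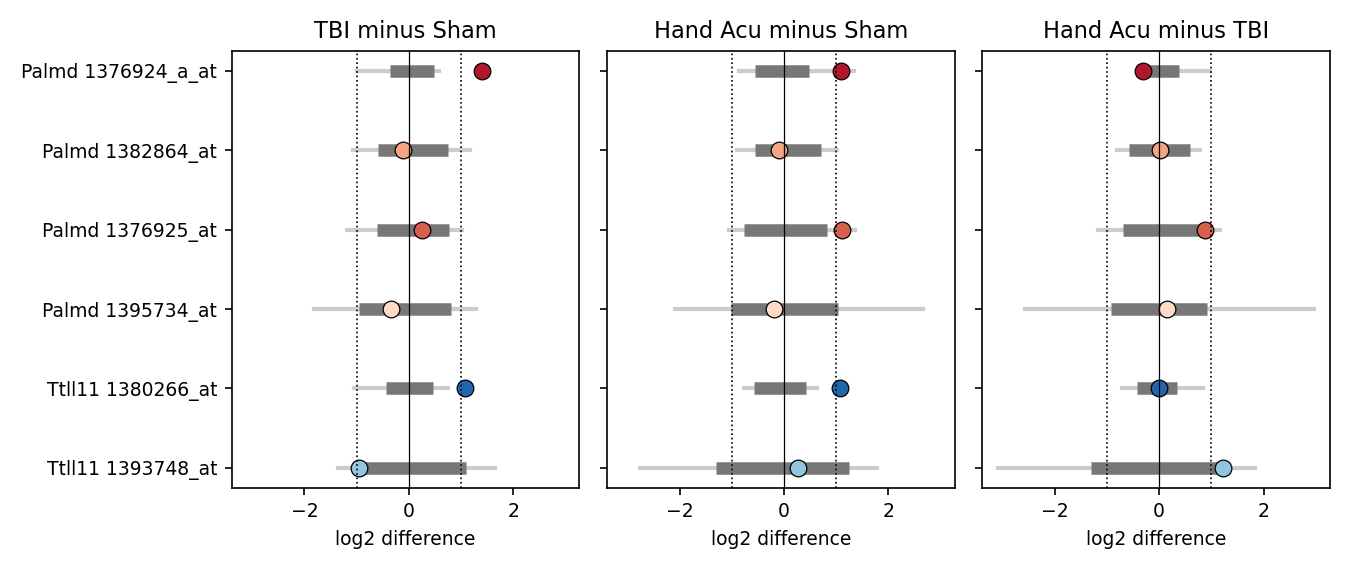
Log2 difference (horizontal axis) of each Palmd and Ttll11 probe set in 3 comparisons, as points. Dark bars span the central 95% and light bars the full range of the 200 probe sets nearest in mean signal, and dotted lines mark 2-fold. The points of 1376924_a_at and 1380266_at lie beyond the dark bars against Sham in both comparisons, at 1.41 and 1.10, and at 1.07 and 1.08.

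Brightness set how common the pattern was. Of all non-control probe sets, 934, or 3.01%, were at least 2-fold lower on Sham than on both other arrays, and 931 of these lay below the floor. Only 3 lay above it, and those were Palmd 1376924_a_at, Ttll11 1380266_at and 1395714_at, which has no gene symbol in the annotation used here. With no floor, 961 probe sets (3.10%) were 2-fold lower on TBI than on both others and 699 (2.25%) on Hand Acu. The share low on Sham fell from 14.0% in the lowest decile of mean signal to 0.13% in decile 5 and 0% in decile 6. In deciles 7 and 8 it was 0.032%, or 1 probe set in each. Those are the chosen Palmd and Ttll11 probe sets themselves, so these 2 shares are no separate background.

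The genes next outside the 2-fold limit were Hoxa5, Pde6g and Harbi1. Hoxa5, which patterns the caudal hindbrain, read 7.35, 8.57 and 8.34 on the Sham, TBI and Hand Acu arrays, so that Hand Acu was 1.99-fold above Sham. Pde6g, the inhibitory subunit of the rod photoreceptor phosphodiesterase, read 8.21, 9.16 and 9.25, with TBI 1.93-fold above Sham. Harbi1, a gene derived from a DNA transposase, read 7.33, 8.38 and 8.20, with Hand Acu 1.83-fold above Sham. The step from Ttll11, whose smaller fold was 2.10, to Hoxa5 was thus small, and the limit of 2-fold separates neighbours in a continuous series. At 1.5-fold, 33 genes over the floor were lower on Sham than on both others and 21 were higher. Of the 31 beyond Palmd and Ttll11, 11 had further probe sets, 17 in all, and 10 of those 17 were also lower on Sham than on both others, where 35.7% of all non-control probe sets were. Of the 7 further probe sets over the floor 5 were.

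Likeness of pattern was measured as the distance between 2 genes in the plane of TBI minus Sham and Hand Acu minus Sham, over 3 arrays and 9241 genes. Nearest to Palmd were Hoxa5 at a distance of 0.21, Ttll11 at 0.34, Harbi1 at 0.42, Pde6g at 0.46 and Ranbp1, which acts with Ran in nuclear transport, at 0.47. Nearest to Ttll11 were Pde6g at 0.13, Hoxa5 at 0.17, Harbi1 at 0.21, Ranbp1 at 0.25 and Iffo1, an intermediate filament family gene, at 0.26. Palmd, at 0.34, was not among the 5 nearest of Ttll11. Both axes subtract the value of Sham, and a departure of that single array would by itself place a gene on the diagonal.

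**Figure D3:**
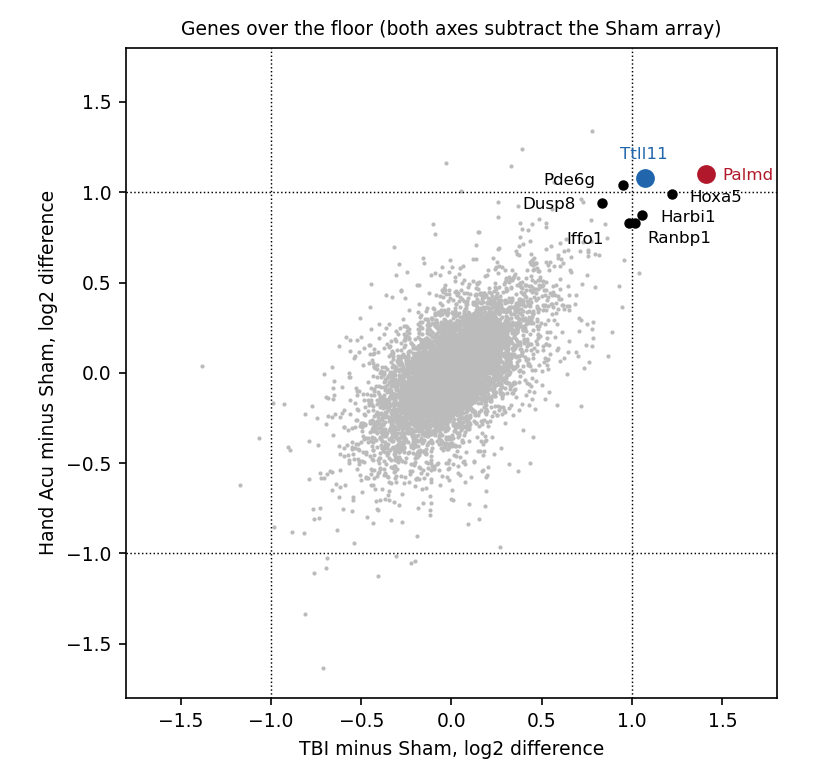
TBI minus Sham (horizontal) and Hand Acu minus Sham (vertical), both log2 differences, for the 9241 genes over the floor, 1 point per gene, with dotted lines at 2-fold. Palmd and Ttll11 are the only points beyond 2-fold on both axes in the upper right, and Hoxa5 lies just below the line at 0.99.

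Other paralemmins showed no difference of this size. Of 7 symbols listed for the family 4 were matched on the array and 3 lay over the floor, Palmd among them. Palm, which encodes paralemmin itself, read 7.81, 7.79 and 7.97 on the Sham, TBI and Hand Acu arrays. Pakap, the paralemmin A kinase anchor protein, read 11.79, 11.90 and 11.90, and was 0.12 lower on Sham than on either of the others. Palm3 lay below the floor at 7.42, 7.03 and 7.60.

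Of 14 listed tubulin tyrosine ligase-like symbols 8 were matched and 4 lay over the floor. Ttll7, a major polyglutamylase of brain tubulin, read 12.17, 12.36 and 12.48 on the Sham, TBI and Hand Acu arrays, lower on Sham by at least 0.18. Ttll5, another polyglutamylase, read 9.08, 9.26 and 9.14, and Ttl, which restores tyrosine to the tail of alpha-tubulin, read 9.38, 9.22 and 9.33. Ttll5 and Ttll7 therefore shared the direction of Ttll11 at differences under 0.32 on the log2 scale, and Ttl went the other way. Leaving out Ttll11, which the rule chose, 2 of the 3 family genes over the floor were lower on Sham than on both others by any amount and 1 was higher, none past 1.5-fold. Over all genes above the floor, 36.3% were lower and 34.3% higher on Sham than on both others. Ttll1, Ttll3, Ttll9 and Ttll13 lay below the floor. Ttll3, a glycylase, read 5.38, 2.40 and 2.90 and so was highest on Sham, in the range where values are erratic.

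Partners of the neuronal polyglutamylase complex, which carries Ttll1, all lay over the floor. Of these 5, 1 was lower on Sham than on both others and 1 higher. The largest difference from Sham was the 0.22 of Cstpp1 in TBI minus Sham, and Lrrc49 differed by 0.22 in Hand Acu minus TBI. Agtpbp1, which removes glutamates from tubulin and whose loss in mice causes Purkinje cell degeneration, read 11.63 on Sham and 11.45 on both others. Of 7 other tubulin-modifying enzymes none was lower on Sham than on both others and 4 were higher, among them the acetyltransferase gene Atat1 (8.98, 8.67 and 8.57) and Matcap1, a detyrosinating protease (8.89, 8.73 and 8.67). The median difference of TBI from Sham in that list was −0.15, and over all genes it was 0.0043. The shares over all genes above the floor were 36.3% lower and 34.3% higher on Sham.

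The lists of tubulins, of proteins that bind microtubules and of p53 targets are read against the same 36.3% lower and 34.3% higher on Sham over all genes. Of 11 tubulin genes over the floor 5 were lower and 3 higher on Sham than on both others, none past 1.5-fold. Those furthest from both other arrays on Sham were Tube1, the epsilon-tubulin gene (0.20 or more higher on Sham), Tubb2b (0.16 or more lower) and Tuba8 (0.13 or more lower). Tubb6 was highest on TBI, at 7.41, 7.86 and 7.06 on the Sham, TBI and Hand Acu arrays. Of 15 microtubule-associated and severing proteins 8 were lower and 0 higher on Sham, with Map6 and Stmn3 lower by 0.12 or more and Katna1, a katanin subunit, by 0.09 or more. Dcx, which encodes doublecortin of young neurons, was also highest on TBI, at 7.93, 8.47 and 7.83. The median difference of TBI from Sham was 0.04 for tubulins and 0.05 for microtubule-associated proteins. Among 12 genes known as targets of p53, 6 were lower on Sham and 1 was higher, none past 1.5-fold, with a median of 0.06 for TBI minus Sham and 0.04 for Hand Acu minus Sham. Bbc3, which promotes apoptosis, was lower on Sham by 0.24 or more, and Cdkn1a, an inhibitor of the cell cycle, read 9.01, 9.55 and 9.16. Aen was highest on Sham, at 7.79, 7.58 and 7.74. Sesn2, Plk2 and Zmat3 were lowest on TBI, and Gadd45a and Sesn1 on Hand Acu. Below the floor, Tp53inp1, Perp and Fas were all highest on Sham.

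**Figure D4:**
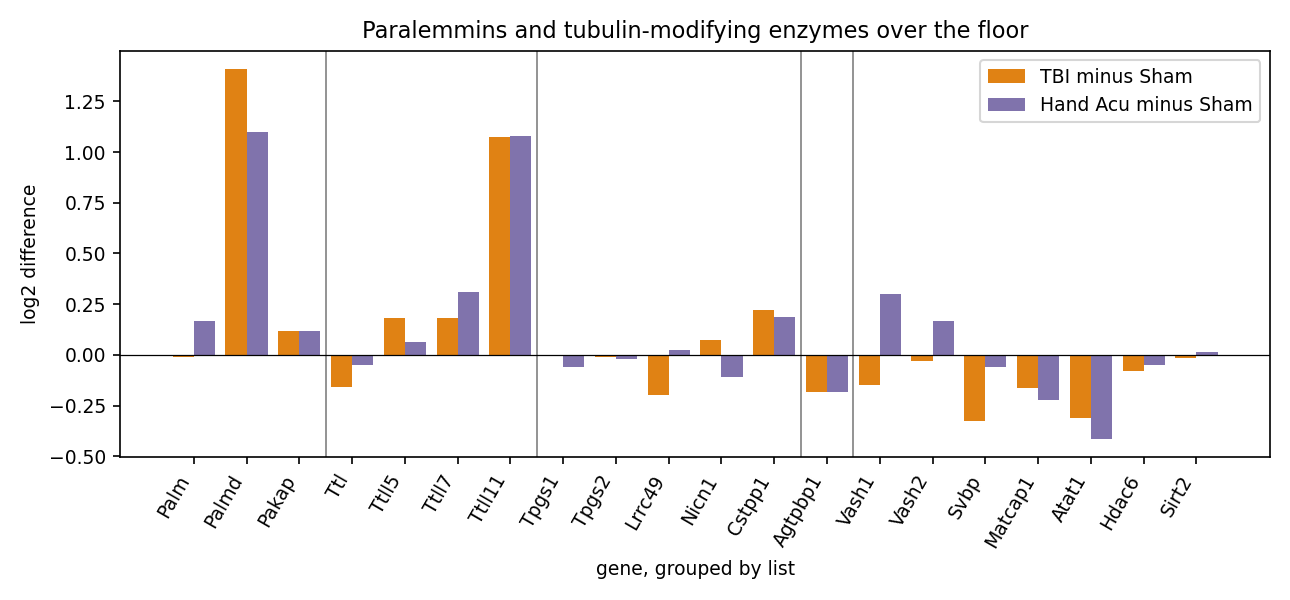
Log2 differences of TBI minus Sham and of Hand Acu minus Sham (vertical axis, bars from 0) for paralemmins, tubulin tyrosine ligase-like genes, polyglutamylase partners, the deglutamylase Agtpbp1 and other tubulin-modifying enzymes over the floor, separated by vertical lines. Palmd and Ttll11 exceed 1.0 in both, and the other bars lie between −0.41 and 0.31.

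Neighbours of the 2 genes on the chromosome were taken by order in the RefSeq table of GRCr8. Those over the floor differed less from Sham than Palmd and Ttll11 did. Of the 10 nearest to Palmd with a probe set, 5 lay over the floor, and 3 of those were lower and 1 was higher on Sham than on both others. The shares over all genes above the floor were 36.3% lower and 34.3% higher. Differences of these 5 ran from −0.13 to 0.45 for TBI minus Sham and from −0.03 to 0.31 for Hand Acu minus Sham. The highest was Ptbp2, a neuronal splicing regulator, at 0.45. Plppr4, a phospholipid phosphatase-related membrane protein of neurons, was 0.17 higher on TBI and 0.21 higher on Hand Acu than on Sham. It is the nearest gene with a probe set on the higher-coordinate side of Palmd. Of the 10 nearest to Ttll11, 7 lay over the floor, with 2 lower and 2 higher on Sham, and differences of TBI from Sham from −0.60 for the centriole gene Cntrl to 0.31 for Ggta1. Ndufa8, a subunit of respiratory complex I and the nearest gene with a probe set on the higher-coordinate side of Ttll11, read 12.34, 12.39 and 12.36.

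The arrays also differed in markers of tissue, many of which move with the same split of Sham against the others. All 12 cerebellum markers over the floor were higher on Sham than on both others, and their summed linear signal was 36066 on Sham, 26915 on TBI and 26303 on Hand Acu. Of 7 hindbrain markers over the floor 5 were lower on Sham and 0 higher, with sums of 2228, 2791 and 2528. Over all genes above the floor, 36.3% were lower on Sham than on both others and 34.3% were higher. The hindbrain markers lower on Sham include Slc6a4, the serotonin transporter (8.16, 8.64 and 8.50), and Chat, which makes acetylcholine (7.71, 7.96 and 7.99). They also include Hoxa5, named above among the genes nearest to both and the only 1 of the 7 past 1.5-fold. Th (9.21, 9.38 and 9.14) and Hoxb2 (7.58, 7.66 and 7.44) were lowest on Hand Acu instead. Hindbrain genes below the floor were Phox2a, Slc6a5, Slc18a3, Dbh and Hoxb4, and Slc6a5, the glycine transporter of brainstem neurons, did not exceed 3.14 on any array. Their part in the low Sham values of Palmd and Ttll11 was not tested.

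Markers of other cells went both ways between lists. Their counts stand beside 36.3% lower and 34.3% higher on Sham over all genes above the floor. The lists are short, and a count near those shares describes no trait of a cell type. Of 9 ependyma and choroid plexus markers 5 were lower and 1 higher on Sham. Their summed linear signals were 18811 on Sham, 20779 on TBI and 17440 on Hand Acu. Among the lower markers were Foxj1 (7.82, 8.31 and 8.39) and Dynlrb2 (8.76, 9.34 and 9.10), genes of ciliated cells. Folr1 was the higher marker, at 8.70, 8.56 and 8.27. Ttr, Sostdc1 and Prlr were lowest on Hand Acu instead. Lower and higher on Sham were 2 and 6 of 13 endothelial markers and 0 and 3 of 4 pericyte and smooth muscle markers. For markers of meninges and fibroblasts they were 2 and 3 of 8. The same counts were 7 and 2 of 10 for neurons, 3 and 1 of 10 for astrocytes, 4 and 0 of 9 for oligodendrocytes, 3 and 1 of 7 for microglia, and 2 and 0 of 3 for blood cells. For beta-actin, the ratio of signal at the 3′ end to that at the 5′ end, which rises as RNA degrades, stood at 5.58 on Sham, 6.37 on TBI and 6.69 on Hand Acu, lowest on Sham. The same ratio for Gapdh was 1.25, 1.20 and 1.28, lowest on TBI. The part of RNA integrity in the result was not tested either.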

How the data were processed

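The deposited table holds log2 signals for 3 arrays, made by the authors with MAS5, per the submitters' processing notes, which give no version. The log base and scaling were read from the deposited values: after trimming 2% at both ends, the linear mean of each array came to 500.0. The array has 31099 probe sets, 57 of them controls, and 20826 non-control ones had 1 symbol in the platform annotation of 2016. The probe set with the highest mean stood for its gene, and 9241 of 14217 genes had a mean log2 signal at or above the floor of 7.44. Palmd and Ttll11 passed it through 1 probe set each.

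The members and the 19 gene lists were chosen with earlier results of these data known. No test was run, since each group is 1 array and their number limits the precision. Genes named are the members, those 2-fold lower on Sham, the 3 next outside, the 5 nearest in pattern, family members, chromosomal neighbours and the leading members of other lists. Values of a few others are given to describe a list, chosen after they were seen. Alternatives were quantile normalization, median centring, an offset of 50, other floors, folds and neighbour numbers, and averages of probe sets. Promoter regions came from a RefSeq table of GRCr8, in which both genes were found. Python 3.11.15 was used, with pandas 2.3.3, numpy 2.4.6 and, for plots, matplotlib 3.10.9, and the counting was tested on simulated data.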

Additional observations from a re-analysis of the deposited data

How the results depend on the processing

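Quantile normalization, median centring and an offset of 50 moved no difference of Palmd or Ttll11 by more than the SD of like probe sets, although with the offset neither gene stayed past 2-fold in both comparisons. Taking 100 or 400 like probe sets, or matching on the brighter array, changes the scatter alone and cannot move a difference. The choice of probe set changed more. With the mean of all probe sets, TBI minus Sham was 0.30 for Palmd and 0.061 for Ttll11, Hand Acu minus Sham was 0.49 and 0.68, and Hand Acu minus TBI was 0.18 and 0.61, with the sign of Palmd turned. With the mean of linear signals, an alternative added after seeing the data, the Palmd values were 0.77, 0.70 and −0.064. These averages include probe sets below the floor, where values scatter more. The number of genes 2-fold lower on Sham than on both others, 2 as reported, was 1 with the offset, 0 with a higher floor of 9.25, 307 with no floor, 33 at 1.5-fold and 0 at 3-fold. It was also 2 with the mean of all probe sets, but neither was Palmd or Ttll11. No paired analysis was possible because each group has 1 array, and for that reason no replicate could be left out.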

Other observations

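Averaging probe sets or adding an offset put other genes, and not Palmd or Ttll11, past the 2-fold limit below both other arrays on Sham, and these are named here after their values were seen. With the mean of all probe sets they were Cdk9, a kinase of transcription elongation, whose mean log2 signal was 6.81 for Sham, 8.28 for TBI and 8.26 for Hand Acu, and Med4, a subunit of the Mediator complex, at 7.09, 8.16 and 8.12. With the offset of 50 added before the log it was Creg2, at 6.66, 8.15 and 8.63. The unnamed probe set 1395714_at, over the floor, read 9.73, 10.85 and 11.07.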
